A study of Homo sapiens with 8 samples.

Results

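The nuclear genes of the respiratory chain are the genes in the chromosomes of the nucleus that encode subunits of the mitochondrial respiratory complexes and the ATP synthase. They made up 88 of the 26830 gene symbols in the deposited table. Members were chosen by symbol alone, from the names that begin with NDUF and a subunit letter, UQCR, COX4 to COX8, SDH and ATP5, together with CYC1 and CYCS, and 3 pseudogene or near-copy symbols (ATP5EP2, UQCRBP1 and UQCRHL) were left out. Complex I (NADH dehydrogenase) had 37 members, of which 7 encode its catalytic core and 30 its accessory subunits. Complex II (succinate dehydrogenase) had 4, complex III (cytochrome bc1) had 9 with CYC1, complex IV (cytochrome c oxidase) had 18 with NDUFA4, complex V (ATP synthase) had 19, and cytochrome c had 1, CYCS. The rule also took in ATP5S and ATP5SL, older symbols of genes now named DMAC2L and DMAC2 whose products are not subunits, and ATP5J2-PTCD1, a readthrough of neighbouring genes.

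The series measured input RNA and ribosome footprints (the fragments that ribosomes protect, 17 to 34 nt) in 4 cultures, which gave 8 libraries, and asked how METTL16, an RNA methyltransferase, bears on translation. The sgMETTL16 group was 3 cultures, each with a different guide RNA against METTL16 (sgMETTL16-1, sgMETTL16-2 and sgMETTL16-3), and the sgNS group was 1 culture with a negative control guide. All cultures came from a single Cas9-carrying clone labelled HEK293T, a human embryonic kidney line, received guides by lentivirus, grew for at least 1 week in blasticidin (10 µg/ml) and puromycin (2 µg/ml), and were given cycloheximide (100 µg/ml, 5 min) before lysis. Nothing in the labels says that the cultures of a guide were repeated. The spread behind the p-values below is thus that among 3 guides, and the single sgNS culture was assumed to vary as they do. In the input test this spread was pooled over genes of similar level, so a gene's own spread among the guides did not enter its p. In the footprint and translation efficiency tests a gene's own spread was combined with the pooled one.

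Values were TPM, a share of transcripts scaled by length, and without read totals a library's depth is unknown. METTL16 stood at 4.72, 5.25 and 4.16 TPM in the sgMETTL16 inputs and at 5.31 TPM in the sgNS input, and was listed at 0 in all 3 sgMETTL16 footprint libraries and at 19.8 TPM in the sgNS footprints. A guide that disrupts the protein need not lower the mRNA. The cell label was not borne out by marker genes: all 12 hepatocyte markers stood at 10 TPM or more in every input, and 6 of the 7 HEK293 markers in the table were under 1 TPM in every input. The hepatocyte markers summed to between 5900 and 8818 TPM in the sgMETTL16 inputs, against 4804 TPM in sgNS, and none of the 12 passed the input test. In the footprints 1 of the 12, FABP1, was listed at 0 in sgNS and stood at 337.8, 233.9 and 320.5 TPM in sgMETTL16, and it passed the footprint and translation efficiency tests (limma adjusted p = 0.00574 and 0.0170). ALB, the defining one, stood at 1099, 1668 and 477.0 TPM in the sgMETTL16 inputs and 353.8 TPM in sgNS. NEFL, NEFM, VIM and GATA3 of the HEK293 list were listed at 0 in all 4 inputs, though VIM had 85.2, 78.7 and 43.3 TPM in the sgMETTL16 footprints and 188.1 TPM in sgNS, and GATA3 had 0, 6.82 and 27.8 TPM in sgMETTL16 and 18.6 TPM in sgNS. Fibroblast markers were under 1 TPM in every input for 4 of 4 genes, and blood markers for 3 of 4. The other blood marker, LYZ, had 480.0, 619.7 and 193.7 TPM in the sgMETTL16 inputs and 216.3 TPM in sgNS. The part of cell identity in the results below was not tested, and in bulk RNA fewer cells of a type and less RNA per cell cannot be told apart. Protein-coding genes held 25.5%, 26.3% and 20.1% of input TPM in sgMETTL16 and 20.3% in sgNS, and 26.8%, 28.3% and 11.9% of footprint TPM in sgMETTL16 and 26.9% in sgNS, so TPM as deposited and shares of protein-coding TPM can differ in direction, and both are given.

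The respiratory chain passes electrons from NADH (complex I) and succinate (complex II) through ubiquinone, complex III and cytochrome c to complex IV, which reduces oxygen. Complexes I, III and IV pump protons across the inner mitochondrial membrane, and complex V uses the gradient to make ATP. Most subunits are nuclear-encoded, translated in the cytosol and imported, and they assemble with a few subunits made inside the mitochondrion. None of the 13 mitochondrially encoded subunits was analysed here.

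In the input RNA most nuclear respiratory chain genes were lower in sgMETTL16 than in sgNS relative to the typical gene, and complex I accessory subunits were the lowest large group. Of the 80 members with a mean input of 1 TPM or more, 67 (83.8%) had a fitted log2 change below 0, against 57% of all 10967 tested genes. The members' median log2 change was -0.43, against -0.06 for all tested genes. It was -0.44, -0.45 and -0.43 in sgMETTL16-1, sgMETTL16-2 and sgMETTL16-3 taken singly, where all tested genes had -0.08, -0.13 and -0.03. Each is taken against the same single sgNS library, so a deviation of that library would enter all of them. These changes are sgMETTL16 minus sgNS on log2(TPM + 1) with every library centred on its median tested gene. On TPM as deposited the members' median was 0.09, on the other side of 0, while that of all tested genes was 0.46.

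Few single genes passed the test. Only 2 of the 80 members (2.5%) had a limma adjusted p under 0.05, both lower in sgMETTL16, where 310 of all tested genes passed (2.83%), of which 137 were lower (1.25%) and 173 higher (1.58%). The members' share of passing genes was thus near that of all genes, and the pattern lay in their common direction. The count of members was 0 without sgMETTL16-1 and 13 without sgMETTL16-3, where that of all tested genes was 110 and 664. On the centred scale 48 of the 80 members (60.0%) stood below sgNS in all 3 sgMETTL16 inputs, against 34.2% of tested genes, and 4 (5.0%) stood above it in all 3, against 23.4%. On TPM as deposited 16 of the 80 (20.0%) were below sgNS in all 3, against 5.37% of tested genes, and 17 (21.2%) were above it in all 3, against 64.1%. On both scales more members than genes at large were below sgNS in every sgMETTL16 input. Every such comparison used the same single sgNS input, so agreement among the sgMETTL16 cultures does not replicate the difference.

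Input RNA was also summed by complex. All 88 members together held 1.53%, 1.53% and 1.47% of protein-coding TPM in sgMETTL16 and 1.75% in sgNS, a ratio of the means of 0.864, while their plain sums of 3895, 4027 and 2959 TPM in sgMETTL16 lay on both sides of the 3545 TPM in sgNS. Complex I accessory subunits had the lowest ratio, with 0.358%, 0.370% and 0.364% in sgMETTL16 and 0.475% in sgNS (ratio 0.768), and their ratio on plain TPM was 0.907. The core of complex I had 0.104%, 0.104% and 0.102% in sgMETTL16 and 0.106% in sgNS (ratio 0.975, or 1.15 on plain TPM). The difference between core and accessory genes was not tested. Complex IV had 0.462%, 0.458% and 0.477% in sgMETTL16 and 0.543% in sgNS (ratio 0.857). The ratios of complexes III and V were 0.903 and 0.912, while on plain TPM the ratios of complexes III, IV and V were 1.07, 1.01 and 1.09, on the other side of 1. Complex II was the exception among the complexes, with 0.0362%, 0.0370% and 0.0307% in sgMETTL16 and 0.0289% in sgNS (ratio 1.198), and it was also above 1 on plain TPM (1.43). Of its 4 genes, 2 had a fitted log2 change below 0. The single cytochrome c gene, CYCS, had a ratio of 1.41, with cultures from 0.968 to 2.14.

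**Figure D1:**
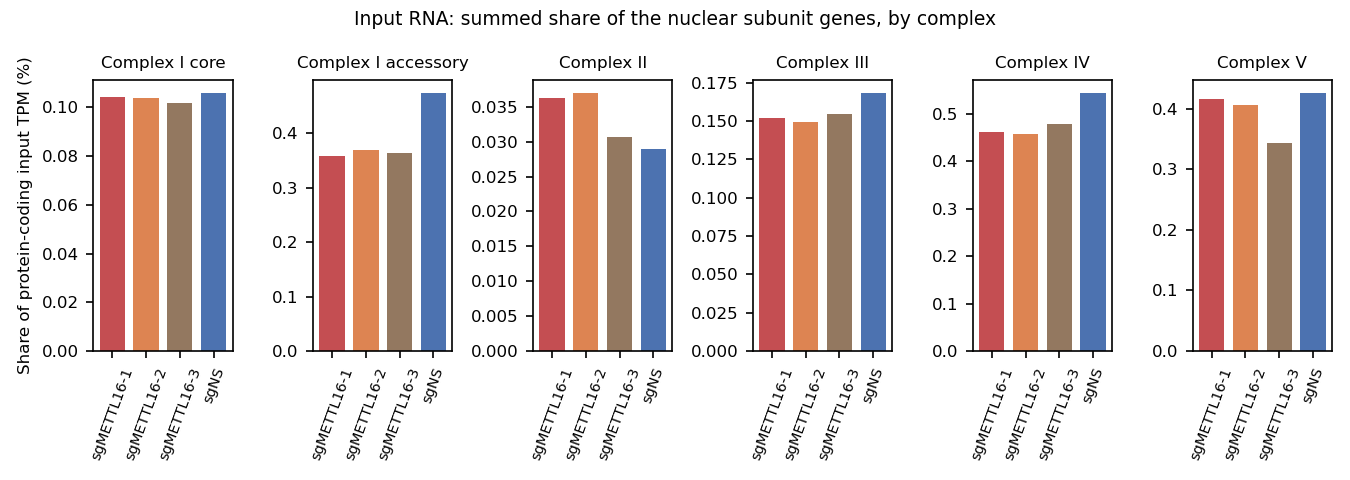
Summed input TPM of the nuclear subunit genes of each complex as a percent of protein-coding TPM (vertical axes, each from 0 and on its own scale), 1 bar per library, with the 3 sgMETTL16 cultures left of sgNS. The sgMETTL16 bars of complex I accessory subunits (0.358% to 0.370%) lie below sgNS (0.475%), those of the complex I core are close to sgNS, and those of complex II lie above it; on plain TPM the sums of all members lie on both sides of sgNS.

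**Figure D2:**
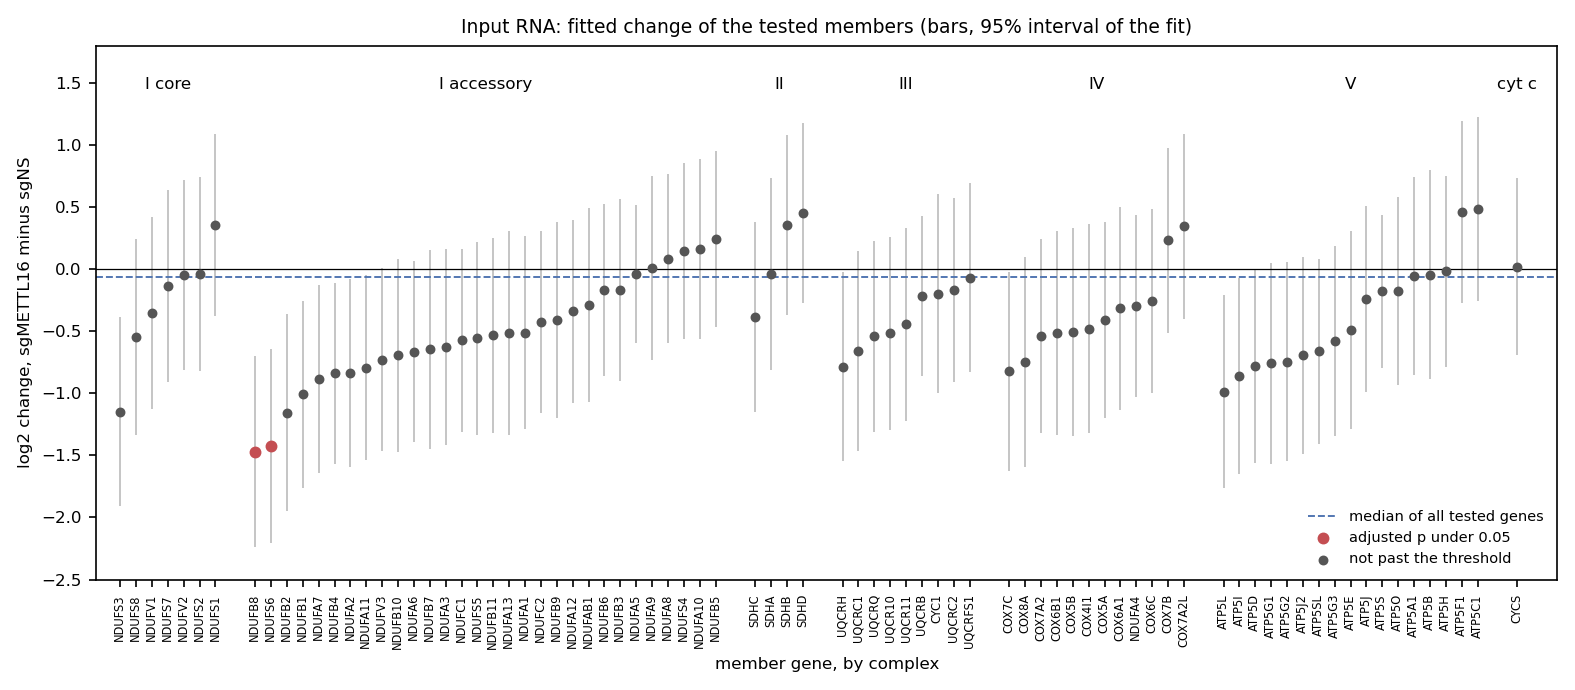
Fitted input log2 change (sgMETTL16 minus sgNS, vertical axis) of the 80 tested members, ordered within each complex, with 95% intervals of the fit as bars and the median of all tested genes as a dashed line. The 2 genes past the threshold, NDUFB8 and NDUFS6, are complex I accessory subunits, and all 9 members of complex III lie below 0; the values are centred, and without centring the median of all genes moves to 0.46.

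The core of complex I holds the flavin and iron-sulfur centres that carry electrons from NADH to ubiquinone. NDUFS8, an iron-sulfur subunit and the core gene with the highest mean input, had 56.2, 62.1 and 57.7 TPM in sgMETTL16 and 59.5 TPM in sgNS, inside the range of the 3 guides. NDUFS3, a subunit of the arm that faces the matrix, had 31.3, 21.3 and 17.2 TPM in sgMETTL16 and 35.3 TPM in sgNS. It was below sgNS in all 3 cultures, with a log2 change of -1.15 (SE 0.39) that did not pass (limma adjusted p = 0.0884). NDUFS1, the largest core subunit, had 14.1, 17.3 and 6.76 TPM in sgMETTL16 and 5.98 TPM in sgNS. It was above sgNS in all 3 on deposited values, as were 64.1% of tested genes. Its centred log2 change was 0.36 (SE 0.37, limma adjusted p = 0.868), and was -0.02 in sgMETTL16-3 taken singly. Over the 7 core genes the median change was -0.14.

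Accessory subunits surround that core and are needed for its assembly and stability. Their median change was -0.55, with 25 of 30 below 0. NDUFB8 (chromosome 10, 100523729 to 100529923 on GRCh38.p14), a subunit of the membrane arm that is widely used as a marker of assembled complex I, had 35.0, 28.6 and 22.2 TPM in sgMETTL16 (28.6 ± 6.39, SD, n = 3) and 55.0 TPM in sgNS. NDUFS6 (chromosome 5, 1801407 to 1816048), a zinc-binding subunit of the matrix arm, had 48.3, 44.0 and 35.2 TPM in sgMETTL16 (42.5 ± 6.65, SD, n = 3) and 79.3 TPM in sgNS. In both genes every sgMETTL16 culture was below sgNS, also on TPM as deposited. NDUFB8 fell by 1.47 on the log2 scale (SE 0.39, limma adjusted p = 0.00927) and NDUFS6 fell by 1.42 (SE 0.40, limma adjusted p = 0.0164). Neither call was kept without sgMETTL16-1 (NDUFB8 -1.57, limma adjusted p = 0.373; NDUFS6 -1.47, limma adjusted p = 0.535) or without centring (-0.94 and -0.90). NDUFS6 overlaps MRPL36 in the annotation, and strand-aware counting is not given in the sources used here.

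NDUFB2, another membrane arm subunit, came next, with 54.0, 55.6 and 49.9 TPM in sgMETTL16 and 82.6 TPM in sgNS. Its 3 sgMETTL16 values were close together and below sgNS, though their closeness does not enter the input test. The log2 change of -1.16 (SE 0.40) did not pass (limma adjusted p = 0.112), and the gene overlaps its antisense gene NDUFB2-AS1. NDUFA13, the accessory gene with the highest mean input, had 139.4, 133.9 and 122.3 TPM in sgMETTL16 and 130.3 TPM in sgNS, so the groups overlapped. NDUFB5 had the highest fitted change of the accessory genes, with 5.94, 11.5 and 2.82 TPM in sgMETTL16 and 3.06 TPM in sgNS. Its log2 change of 0.24 (SE 0.36, limma adjusted p = 0.927) rested on sgMETTL16-2 and was -0.05 without it.

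The promoters of the 4 complex I genes with the lowest fitted changes are shown because respiratory genes are known as a class whose promoters often hold sites for NRF1, for ETS-family factors such as the one that contains GABPA, and for YY1. Each is the 250 bases before the annotated start, 5′ to 3′ on the gene's own strand, from RefSeq on GRCh38.p14, and capitals mark a match to the NRF1 letters CGCATGCG or the ETS letters CCGGAAG on either strand. NDUFB8 lies at chr10:100529924-100530173 on the minus strand, and the others on the plus strand, NDUFS6 at chr5:1801157-1801406, NDUFS3 at chr11:47578824-47579073 and NDUFB2 at chr7:140696458-140696707.
NDUFB8: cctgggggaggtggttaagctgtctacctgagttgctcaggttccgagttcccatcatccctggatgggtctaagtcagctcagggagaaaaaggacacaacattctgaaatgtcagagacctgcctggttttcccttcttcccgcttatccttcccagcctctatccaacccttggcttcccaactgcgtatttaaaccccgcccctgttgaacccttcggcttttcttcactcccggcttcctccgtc
NDUFS6: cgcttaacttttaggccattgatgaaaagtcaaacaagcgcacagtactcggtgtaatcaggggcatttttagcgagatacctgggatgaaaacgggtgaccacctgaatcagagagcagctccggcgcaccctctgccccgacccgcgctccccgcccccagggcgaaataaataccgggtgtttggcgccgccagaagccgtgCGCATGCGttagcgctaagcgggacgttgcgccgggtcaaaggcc
NDUFS3: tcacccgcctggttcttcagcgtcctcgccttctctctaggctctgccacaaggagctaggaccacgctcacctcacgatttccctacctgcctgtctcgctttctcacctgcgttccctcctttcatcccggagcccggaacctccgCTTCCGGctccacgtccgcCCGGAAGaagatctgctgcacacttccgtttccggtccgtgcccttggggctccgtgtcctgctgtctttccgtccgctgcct
NDUFB2: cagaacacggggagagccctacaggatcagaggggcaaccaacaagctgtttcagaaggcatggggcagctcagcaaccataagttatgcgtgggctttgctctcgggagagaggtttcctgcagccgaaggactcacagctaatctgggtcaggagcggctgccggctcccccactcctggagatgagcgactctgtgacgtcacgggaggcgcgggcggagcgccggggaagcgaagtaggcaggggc

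NDUFS6 held 1 NRF1 match and NDUFS3 held 2 ETS matches, while NDUFB8 and NDUFB2 held no match to these or to the YY1 letters AAGATGG in this window. Over the 70 members with a RefSeq promoter (250 bases before to 50 after the start), the NRF1 letters were in 10 (14.3%), against 4.23% of 8503 promoters of genes tested in the input. The YY1 letters were in 16 (22.9%, against 8.30%) and the ETS letters in 19 (27.1%, against 20.5%). Any of the 3 was in 36 (51.4%, against 29.5%). The 70 include members that were not tested in the input. Over the 66 tested members the shares were 15.2% for NRF1, 24.2% for YY1, 28.8% for ETS and 54.5% for any. Input changes of the 66 tested members with a promoter are given by motif, with no test: the median was -0.28 with and -0.51 without the NRF1 letters, and -0.51 with and -0.41 without the ETS letters. With and without the YY1 letters it was -0.29 and -0.51. The NRF1 letters were settled on after member promoters had been looked at, so their share is a description.

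Complex II is both an enzyme of the citric acid cycle and the second entry of electrons. SDHA, its flavoprotein, had 45.2, 38.5 and 30.5 TPM in sgMETTL16 and 26.5 TPM in sgNS, and all 3 sgMETTL16 cultures were above sgNS on deposited values. That held for 64.1% of tested genes, and the centred log2 change of SDHA was -0.04 (SE 0.39, limma adjusted p = 0.994). SDHD, a membrane anchor, had 8.29, 14.9 and 4.96 TPM in sgMETTL16 and 3.85 TPM in sgNS, with a log2 change of 0.45 (SE 0.37, limma adjusted p = 0.777). SDHC, the other anchor, had 30.0, 29.4 and 21.9 TPM in sgMETTL16 and 24.2 TPM in sgNS, with a centred log2 change of -0.39 (SE 0.39, limma adjusted p = 0.853), which was 0.14 without centring. None of the 4 genes passed, and their median change was 0.16.

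Complex III passes electrons to cytochrome c. UQCRC1, a core subunit and its most abundant transcript on average, had 111.0, 91.3 and 81.5 TPM in sgMETTL16 and 102.8 TPM in sgNS. UQCRH, the hinge subunit, had 30.8, 37.2 and 16.6 TPM in sgMETTL16 and 32.2 TPM in sgNS. Both genes overlapped sgNS before centring. The log2 change of UQCRH was -0.79 (SE 0.39, limma adjusted p = 0.420). UQCRFS1, the Rieske iron-sulfur protein, had the change nearest 0 of the 9, with 32.1, 36.1 and 19.7 TPM in sgMETTL16 and 20.4 TPM in sgNS. CYCS, the mobile carrier between complexes III and IV, had 5.53, 10.7 and 3.71 TPM in sgMETTL16 and 3.87 TPM in sgNS. Its log2 change of 0.02 (SE 0.36, limma adjusted p = 0.996) was -0.21 without sgMETTL16-2.

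Complex IV reduces oxygen, around a catalytic centre that the mitochondrial genome encodes. COX8A, a small membrane subunit with the highest mean input of all members, had 202.7, 221.9 and 217.7 TPM in sgMETTL16 and 249.4 TPM in sgNS, below sgNS in all 3. COX7C, another small subunit, had 88.4, 101.2 and 56.3 TPM in sgMETTL16 and 97.9 TPM in sgNS, with a log2 change of -0.82 (SE 0.41, limma adjusted p = 0.422). Going the other way was COX7A2L, whose product joins complexes III and IV in supercomplexes, with 21.8, 18.0 and 11.0 TPM in sgMETTL16 and 8.46 TPM in sgNS. Its 3 sgMETTL16 values were all above sgNS, as held for 64.1% of tested genes on deposited values. Its log2 change of 0.34 (SE 0.38) did not pass (limma adjusted p = 0.876).

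Several complex IV subunits exist as paralogs that differ by tissue, and the common forms carried nearly all of the RNA in both guide groups. COX4I1 held 100% of its pair in the sgMETTL16 inputs and 99.98% in sgNS, and COX6B1 and COX7A2 held at least 99.95% and 99.53% in every input. The heart and muscle forms COX6A2 and COX7A1, the lung form COX4I2 and the testis forms COX6B2, COX7B2 and COX8C were listed between 0 and 0.20 TPM in all inputs. The 3 genes of the ATP synthase c-ring, which encode the same mature protein, kept their proportions. ATP5G1 held 45.4%, 45.4% and 46.4% of their sum in sgMETTL16 and 46.7% in sgNS, ATP5G2 38.4%, 39.1% and 40.3% in sgMETTL16 and 39.8% in sgNS, and ATP5G3 16.1%, 15.4% and 13.3% in sgMETTL16 and 13.4% in sgNS. The order of the 3 was the same in every input.

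In complex V the catalytic beta subunit gene ATP5B had 291.8, 222.0 and 162.0 TPM in sgMETTL16 and 156.3 TPM in sgNS, above sgNS in all 3 on deposited values. So were 64.1% of tested genes, and the centred log2 change of ATP5B was -0.04 (SE 0.43, limma adjusted p = 0.994). ATP5L, subunit g of the membrane part, had 38.8, 37.6 and 32.8 TPM in sgMETTL16 and 50.3 TPM in sgNS. It was below sgNS in all 3, with a log2 change of -0.99 (SE 0.40, limma adjusted p = 0.219). ATP5C1, the gamma subunit that forms the central stalk, had 14.9, 28.2 and 6.95 TPM in sgMETTL16 and 6.65 TPM in sgNS, with the highest fitted change of all members, 0.48 (SE 0.38, limma adjusted p = 0.752). On the centred scale it was below sgNS in sgMETTL16-3 (-0.11). Over the 17 tested genes the median change was -0.49, with 15 below 0.

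**Figure D3:**
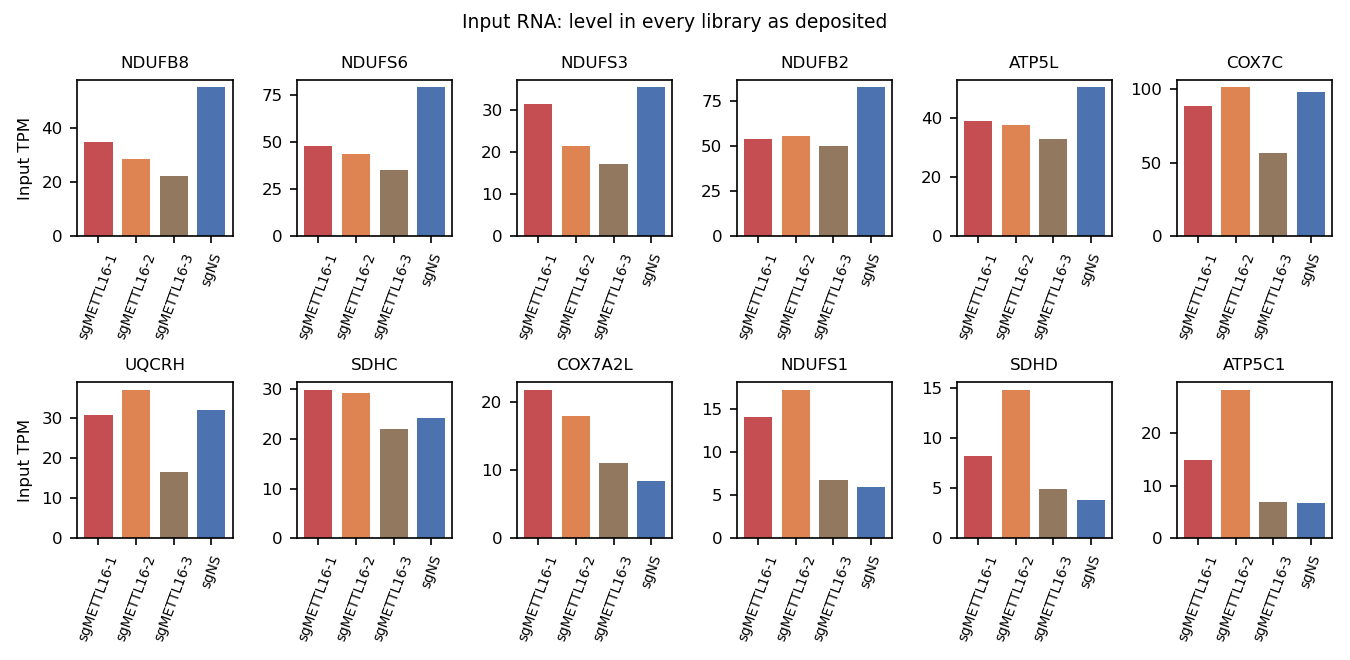
Input TPM as deposited (vertical axes, each from 0) of 12 members in each library, sgMETTL16 cultures left of sgNS, without error bars since each bar is 1 library. NDUFB8, NDUFS6, NDUFS3, NDUFB2 and ATP5L are lower in all 3 sgMETTL16 cultures than in sgNS, while COX7A2L, NDUFS1, SDHD and ATP5C1 are higher in all 3 and highest in sgMETTL16-1 or sgMETTL16-2. On this scale 64.1% of tested genes are higher in all 3.

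The 3 guides differed among themselves, most of all for members of low level. The ratio of sgMETTL16-2 to sgMETTL16-3 input TPM ran from 0.984 for CYC1, the cytochrome c1 gene, to 5.68 for COX7B, with 4.09 for NDUFB5 and 4.06 for ATP5C1. Members with higher input levels had smaller ratios (Spearman rho -0.63 across 80 genes, which share the same libraries) than genes at large (-0.24 across 10967). Members with higher levels also had lower fitted changes (rho -0.43, against -0.04 for all tested genes). The median coefficient of variation over the 3 sgMETTL16 inputs was 28.0% for members and 24.8% for all tested genes.

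Genes that work beside the chain were described from lists of the pathway. Citric acid cycle and pyruvate dehydrogenase genes had a median input change of 0.00 over 17 genes, and nuclear regulators of respiratory genes 0.01 over 12. Complex I assembly factors had -0.14 (14 genes), complex IV assembly factors -0.13 (23), mitochondrial import genes -0.17 (20), ubiquinone synthesis genes -0.26 (11), carriers and outer membrane channels -0.04 (7), and complex II, III and V assembly factors -0.27 (4), -0.24 (5) and -0.04 (4). All these medians were nearer 0 than that of the members, and the differences were not tested. PET100, which is needed to assemble complex IV, was the only gene of these lists past the input threshold, with 43.8, 47.5 and 33.4 TPM in sgMETTL16 and 77.8 TPM in sgNS, and fell by 1.43 on the log2 scale (limma adjusted p = 0.0155). Its cultures did not overlap sgNS.

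The footprint libraries were sparse. Of the 88 members, 56, 69 and 42 were above 0 in the footprints of sgMETTL16-1, sgMETTL16-2 and sgMETTL16-3, and 44 in sgNS. Only 22 were above 0 in all 4 libraries and 14 in none, among them 7 with a mean input of 1 TPM or more, such as ATP5G2 and NDUFA3 with mean inputs of 83.1 and 61.6 TPM. A value listed at 0 here is thus not evidence that a gene is not translated. Of the members above 0 in a pair of libraries, several stood at a single ratio that many genes shared, as happens where genes hold equal small numbers of reads. That ratio was 1.89 for sgNS over sgMETTL16-1 (7 of 34 members and 28.5% of genes), 2.73 over sgMETTL16-2 (7 of 42 and 23.6%) and 2.01 over sgMETTL16-3 (11 of 26 and 33.7%), within 0.02 in the natural log.

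The highest footprint levels among the 22 members above 0 in all 4 libraries belonged to the ATP synthase. ATP5A1, the alpha subunit, had 343.5, 346.4 and 177.0 TPM in sgMETTL16 and 384.3 TPM in sgNS, and ATP5B had 280.4, 320.2 and 155.8 TPM in sgMETTL16 and 312.3 TPM in sgNS. NDUFS5, a complex I accessory subunit on the intermembrane side, had 167.6, 154.8 and 53.0 TPM in sgMETTL16 and 530.1 TPM in sgNS. For all 3 genes sgMETTL16-3 had the lowest value. Next were COX6B1 (107.1, 185.5 and 152.5 TPM in sgMETTL16 and 304.9 TPM in sgNS), COX4I1 (110.0, 254.0 and 104.1 TPM in sgMETTL16 and 208.5 TPM in sgNS) and the mitochondrial acyl carrier protein gene NDUFAB1 (235.3, 260.8 and 44.6 TPM in sgMETTL16 and 89.3 TPM in sgNS). COX8A had 188.8, 87.2 and 119.5 TPM in sgMETTL16 and 119.5 TPM in sgNS, UQCRC1 131.9, 143.7 and 53.4 TPM in sgMETTL16 and 178.5 TPM in sgNS, ATP5C1 157.2, 218.0 and 74.4 TPM in sgMETTL16 and 49.7 TPM in sgNS, and the iron-sulfur subunit gene NDUFV2 133.1, 46.1 and 31.5 TPM in sgMETTL16 and 189.2 TPM in sgNS. The order of these genes differed between libraries, and only ATP5C1 of the 10 was above sgNS in all 3 sgMETTL16 libraries. Of all 88 members, 16 were above sgNS in every sgMETTL16 footprint library on deposited TPM and 22 were below it in every one. For the 9297 tested genes the shares were 7.68% and 31.2%, but the 88 include 14 listed at 0 in all 4 libraries. Among protein-coding genes with a mean input of 10 TPM or more, 14 of 65 members (21.5%) were above sgNS in every one, against 9.4% of all 3927 genes. Below it were 17 of the 65 (26.2%), against 27.3%, so the members' share below sgNS was near that of all such genes.

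Members listed at 0 in sgNS footprints and above 0 in all 3 sgMETTL16 libraries numbered 14 of 73 tested members (19.2%), against 6.65% of the 9297 tested genes, and 1 showed the reverse (1.37%, against 5.84%). Among protein-coding genes with a mean input of 10 TPM or more, the first pattern was found in 12 of 65 members (18.5%) and 7.59% of all 3927 genes. In the footprint fit 7 of the 73 members (9.59%) passed the threshold, all higher in sgMETTL16, where 51 of all tested genes did (0.549%), all 51 higher (0.549%) and none lower (0%). Under an unadjusted p of 0.05, 117 tested genes were lower in sgMETTL16. The members' median footprint change was 0.49, below the 1.40 of all tested genes. All 51 genes that passed, these 7 members and the hepatocyte marker FABP1 included, were listed at 0 in sgNS. No fold is given for them, because the size of a change against a listed 0 is set by the pseudocount. Their p depends on that listed 0 of a single library as well, and they entered the test through their sgMETTL16 values alone. The calls thus describe a pattern of listed zeros. No member passed without sgMETTL16-3, with no intensity trend, or among genes above 0 in all 4 libraries, and no gene of the whole table did. With a pseudocount of 10 no member passed, where 31 of all tested genes did. Without sgMETTL16-1, 13 of 73 members and 178 of 8575 genes passed, and without sgMETTL16-2, 13 of 67 members and 146 of 8174 genes. Not all of these were higher in sgMETTL16: both sets of 13 include ATP5G1, with 55.0, 114.2 and 0 TPM in sgMETTL16 and 521.3 TPM in sgNS.

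The 7 genes belong to complexes I, III, IV and V. NDUFA1, a small subunit needed to assemble complex I, had 329.3, 683.9 and 62.6 TPM in the sgMETTL16 footprints and was listed at 0 in sgNS. NDUFB6 had 121.8, 365.7 and 38.5 TPM in sgMETTL16 and 0 in sgNS, and NDUFB9 had 137.5, 158.8 and 43.4 TPM in sgMETTL16 and 0 in sgNS. For these complex I accessory genes sgMETTL16-2 was highest and sgMETTL16-3 lowest. UQCRH had 121.3, 127.7 and 76.6 TPM in sgMETTL16 and 0 in sgNS. COX6C, a small complex IV subunit, had 336.1, 279.5 and 63.6 TPM in sgMETTL16 and 0 in sgNS, and COX7C had 239.3, 165.6 and 75.9 TPM in sgMETTL16 and 0 in sgNS. ATP5H, subunit d of the ATP synthase stalk, had 230.8, 79.9 and 219.1 TPM in sgMETTL16 and 0 in sgNS. The limma adjusted p of the 7, which rests on the listed 0 in sgNS, ran from 0.0147 for COX7C to 0.0470 for NDUFB6. The input RNA of all 7 was above 0 in sgNS, from 3.30 TPM for NDUFB6 to 97.9 TPM for COX7C.

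The other 7 genes with this pattern did not pass the footprint test. The complex IV gene COX7A2 had 223.4, 61.9 and 42.3 TPM in sgMETTL16 and its fellow subunit gene COX6A1 had 55.4, 76.7 and 105.0 TPM in sgMETTL16, with both at 0 in sgNS. COX5A, also of complex IV, had 81.1, 28.1 and 38.4 TPM in sgMETTL16, and ATP5O, the subunit that confers sensitivity to oligomycin, had 77.2, 53.5 and 73.1 TPM in sgMETTL16, again with 0 in sgNS. The complex I membrane arm genes NDUFB11 and NDUFB3 had 28.1, 78.0 and 106.4 TPM and 40.0, 110.9 and 37.9 TPM in sgMETTL16. UQCRB, a small complex III subunit, was the lowest in sgMETTL16 at 6.09, 8.45 and 5.75 TPM, and all 3 genes were at 0 in sgNS. By complex the 14 were 5 complex I accessory, 2 complex III, 5 complex IV and 2 complex V genes, and none encodes the complex I core or complex II. NDUFA8, a complex I subunit of the intermembrane side, was the reverse case, with 0 in all 3 sgMETTL16 libraries and 56.6 TPM in sgNS. Near-copies also took up footprint signal in single libraries: ATP5EP2, left out as a pseudogene, had 445.2 TPM in sgMETTL16-1, where ATP5E was listed at 0, and UQCRHL had 99.9 TPM in sgMETTL16-2 and 0 in the other 3 footprint libraries.

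**Figure D4:**
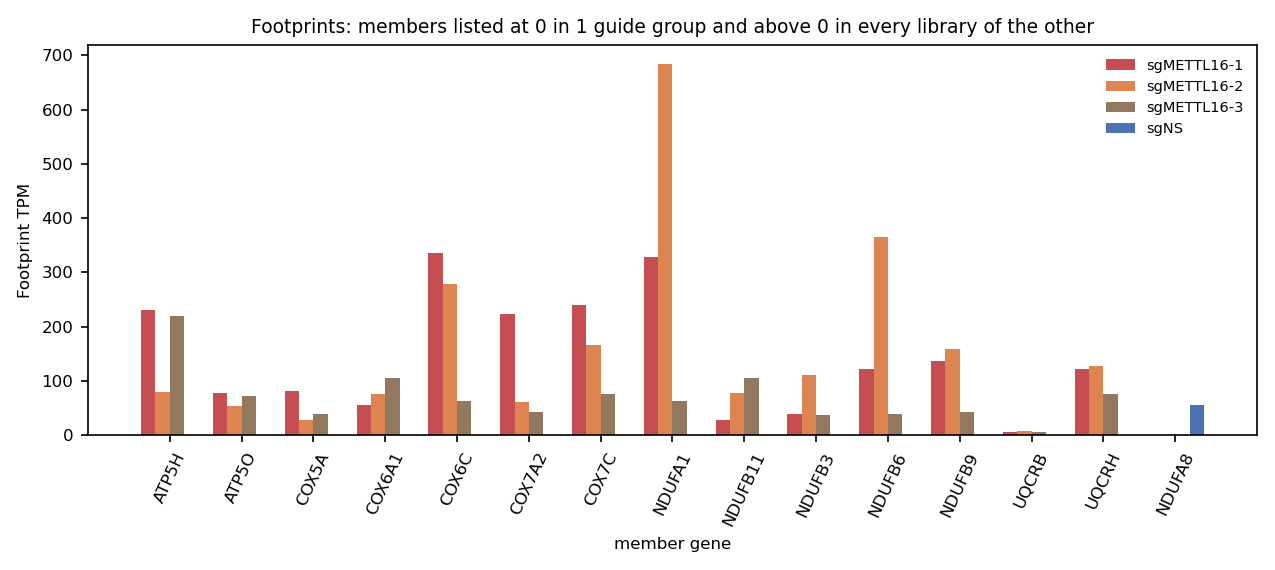
Footprint TPM as deposited (vertical axis, from 0) of the 15 members that are listed at 0 in 1 guide group and above 0 in every library of the other, with 1 bar per library and the sgMETTL16 cultures left of sgNS. The 14 genes on the left have no sgNS bar since they are listed at 0 there, and NDUFA8 has a bar in sgNS alone (56.6 TPM).

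Translation efficiency is the footprint level over the input level, and it was tested as the interaction of guide and library kind over all 8 libraries. In this fit 10 of 73 members (13.7%) passed, all higher in sgMETTL16, against 77 of 8002 tested genes (0.962%), of which 70 were higher (0.875%) and 7 lower (0.0875%). The 10 were COX7C, UQCRH, NDUFB9, COX6C, ATP5O, COX6A1, COX7A2, NDUFA1, COX5A and ATP5H, with limma adjusted p from 0.0143 to 0.0459, and 5 of them encode complex IV. All 10 are among the 14 listed at 0 in the sgNS footprints, so the call carries the same limit as the footprint result. The median change of the tested members was 0.83, below the 1.04 of all tested genes. With the culture that gave both libraries as a replicate block, none of the 73 members passed (the lowest limma adjusted p was 0.0537, for COX7C), 14 had an unadjusted p under 0.05, of which 13 were higher, and 13 of all genes passed. None passed either when any 1 sgMETTL16 culture was left out.

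Members with footprints and input in all 8 libraries allowed ratios without zeros. Over these 22 genes the median ratio of footprint to input TPM was 1.54, 1.99 and 1.41 in sgMETTL16 and 2.34 in sgNS, and over 1786 protein-coding genes it was 1.56, 1.38 and 1.55 in sgMETTL16 and 3.52 in sgNS. The sgNS ratio was thus the highest for both, by less for the members. NDUFA9 had 1.15, 2.54 and 4.25 in sgMETTL16 and 12.5 in sgNS, and NDUFS5 had 4.12, 2.84 and 1.74 in sgMETTL16 and 12.7 in sgNS. NDUFS1 had 6.35, 2.88 and 3.75 in sgMETTL16 and 2.84 in sgNS. ATP5C1 had 10.6, 7.73 and 10.7 in sgMETTL16 and 7.47 in sgNS, and it and NDUFS1 were above sgNS in all 3 cultures. Among the 22, none of the members passed a fit restricted to genes above 0 in all 8 libraries.

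**Figure D5:**
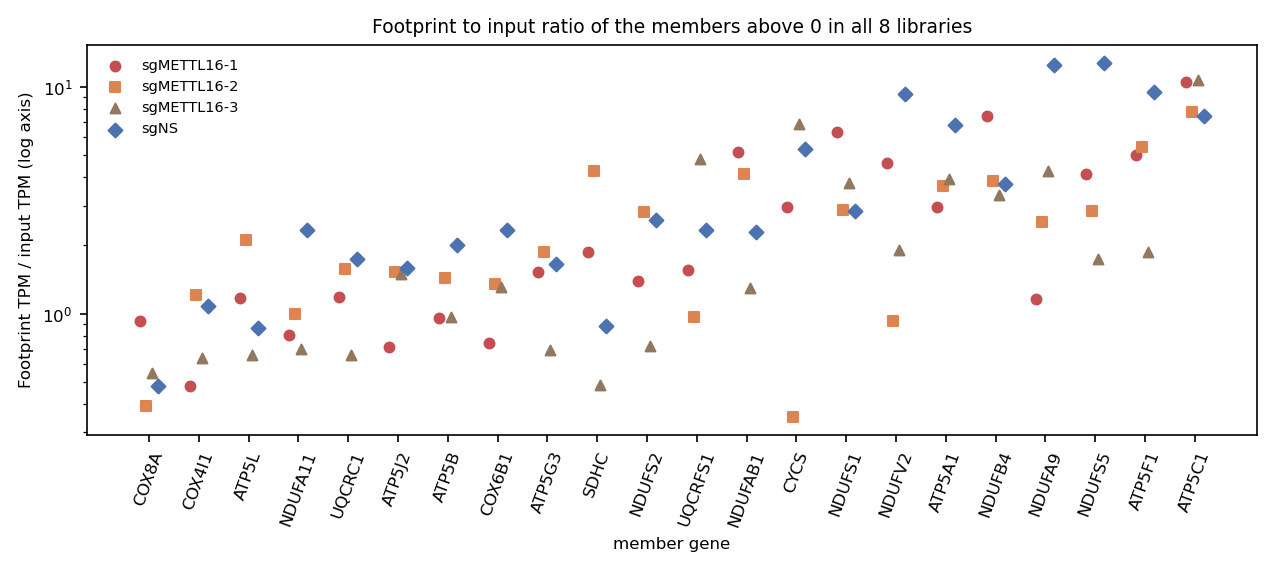
Ratio of footprint TPM to input TPM (vertical log axis) in each culture for the 22 members above 0 in all 8 libraries, with sgMETTL16 cultures drawn left of sgNS for each gene. The sgNS point is far above the others for NDUFA9 and NDUFS5 (12.5 and 12.7), and the sgMETTL16 points of a single gene often spread as widely as the gap to sgNS, as for CYCS (2.94, 0.350 and 6.90 in sgMETTL16 and 5.30 in sgNS).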

How the data were processed

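Input RNA and ribosome footprints were measured in 4 cultures. The authors aligned reads with STAR and quantified genes with RSEM 1.2.31 on GRCh38, per the submitters' processing notes; the annotation, the handling of strand and the STAR version are not given in the sources used here. The deposited values are TPM for 26830 symbols, so they are shares of a library, carry no depth, and allow no counting intervals. Everything below was computed from that table with Python 3.11.15, R 4.3.3 and limma 3.58.1.

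The input, footprint and translation efficiency comparisons (sgMETTL16 minus sgNS, 3 cultures and 1) were fitted on log2(TPM + 1) over all genes with a TPM of at least 1 on average. Input libraries were centred on the median tested gene and footprint libraries on the median of genes above 0 in all 4, since the median tested gene of a sparse footprint library can be 0. Moderation used an intensity trend and p-values were adjusted by Benjamini-Hochberg over all tested genes, with a threshold of 0.05; in the input fit the variance came from the trend alone (prior degrees of freedom Inf). The fitted change of a low gene is understated on this scale. The scripts were tested on simulated data.

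The members and gene lists were chosen with earlier results of these data known. Members described with values per library are those that passed a test, the highest in mean input and the highest and lowest in change of each complex, the tissue paralogs, the 10 highest in footprints above 0 in all 4 libraries, and those at 0 in 1 guide group's footprints only; NDUFB2, NDUFA9, NDUFA3, CYC1, ATP5E, PET100 and SDHAF2 were named after their values were seen. Symbols were matched to RefSeq of GRCh38.p14 (68 members by symbol and 20 by an older one), which gave places and 70 promoters.

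Each culture gave an input and a footprint library of the same number, so culture pairs the kinds of library. Deviations of same-numbered libraries from their group means correlated at 0.09, 0.10 and 0.12 across 2400 genes, and the block on culture was run as an alternative. Alternatives changed the pseudocount, filter, centring, scaling to protein-coding genes, moderation and the cultures included. No column of the table was left unused.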

Additional observations from a re-analysis of the deposited data

How the results depend on the processing

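Depth is unknown, 1 sgNS culture gives no spread of its own, and all 51 footprint calls are genes listed at 0 in the sgNS footprints. The cause of each difference below was not tested.

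The members' median input change was -0.43, and it was -0.51, -0.48 and -0.16 with pseudocounts of 0.1, 0.5 and 10, -0.34 with no filter, -0.54 with TPM rescaled over protein-coding genes, and 0.094 with no centring, where the median of all genes was 0.46. It ran from -0.45 to -0.40 with a culture left out. Input calls among members were 2 of 80, against 1 of 84 with no filter and 5 of 75 with a filter of 5 TPM. They were 0 with no centring, 1 of 81 with protein-coding rescaling and 4 of 80 with no intensity trend. With a culture left out they were 0 to 13 (0 without sgMETTL16-1, 13 without sgMETTL16-3). Input calls among all genes were 310 of 10967, against 395 of 20560 with no filter and 382 of 6277 with a filter of 5 TPM. They were 23 with no centring, 220 of 11811 with protein-coding rescaling and 386 of 10967 with no intensity trend. With a culture left out they were 110 to 664.

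NDUFS6 did not pass with no filter (-1.28) or with protein-coding rescaling (-1.55). Signs turned for SDHC with no centring (0.14), for CYCS with protein-coding rescaling (-0.019) and without sgMETTL16-2 (-0.21), and for NDUFB5 without sgMETTL16-2 (-0.055). As shares of protein-coding TPM the sums, sgMETTL16 over sgNS, were 0.864 for all members, 0.975 for the complex I core, 0.768 for its accessory subunits, 1.198 for complex II, 0.903 for III, 0.857 for IV and 0.912 for V, and on plain TPM they were 1.02, 1.15, 0.907, 1.43, 1.07, 1.01 and 1.09 in the same order.

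Footprint calls among members were 7, against 3 and 0 with pseudocounts of 0.1 and 10, 4 with no centring, and 0 with genes above 0 in all 4 libraries, with centring on all tested genes, with protein-coding rescaling and with no intensity trend. The 4 with no centring were ATP5O, COX6A1, NDUFA8 and UQCRH. Only UQCRH of these was among the 7, and NDUFA8 was lower in sgMETTL16. With a culture left out the calls among members were 0 to 13 (0 without sgMETTL16-3, 13 without sgMETTL16-1 and 13 without sgMETTL16-2). Footprint calls among all genes were 51, against 28 and 31 with pseudocounts of 0.1 and 10, 580 with no centring and 0 under the other 4 settings, and 0 to 178 with a culture left out. The members' median footprint change was 0.49, where that of all tested genes was 1.40. It was -2.19 with centring on all tested genes (-1.28 for all genes) and 0.15 with genes above 0 in all 4 libraries (-0.02 for all genes). With no centring it was -0.06, on the other side of 0 (0.85 for all genes). With a culture left out it ran from 0.04 to 1.03.

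Translation efficiency calls among members were 10, against 13 and 11 with pseudocounts of 0.1 and 0.5 and 13 with protein-coding rescaling. They were 0 with the replicate block, with a pseudocount of 10 and with genes above 0 in all 8 libraries. They were also 0 with no centring, with centring on all tested genes and without any 1 culture. Among all genes they were 77, against 13 with the replicate block, 383, 137 and 10 with pseudocounts of 0.1, 0.5 and 10, 0 with genes above 0 in all 8 libraries, 14 with no centring, 0 with centring on all tested genes, 213 with protein-coding rescaling and 0 without any 1 culture. The members' median change was 0.83, where that of all tested genes was 1.04. It was 0.59 with a pseudocount of 10 (0.59 for all genes) and 0.49 with genes above 0 in all 8 libraries (0.04 for all genes). With no centring it was -0.25 (-0.04 for all genes), and with a culture left out it ran from 0.59 to 1.51. The replicate block, which applies to translation efficiency alone, left no listed pathway gene past the threshold.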

Other observations

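Footprint shares of whole complexes differed from their input shares in these libraries. The complex I core held 0.684 times the protein-coding footprint TPM in sgMETTL16 that it held in sgNS (lowest culture 0.650, highest 0.743), complex III held 1.44 times (1.42 to 1.47) and complex IV 1.46 times (1.27 to 1.57). The sums of complexes IV and III include 5 and 2 genes that were listed at 0 in the sgNS footprints alone. Complex IV had 11, 11 and 8 members above 0 in sgMETTL16 and 6 in sgNS. The ratios of complexes III and IV thus carry the limit of those listed zeros and do not show a shift shared by their subunits. Protein-coding genes held 11.9% of footprint TPM in sgMETTL16-3, against 26.8% and 28.3% in the other sgMETTL16 libraries and 26.9% in sgNS, and the part of this in the shares was not tested. On plain footprint TPM the same ratios of means were 0.555, 1.197 and 1.190, and for complexes III and IV their cultures fell on both sides of 1 (0.627 to 1.54 and 0.678 to 1.56). Complexes II and V and the complex I accessory subunits had cultures from 0.152 to 1.43, from 1.00 to 1.44 and from 0.699 to 2.00 on the protein-coding scale. Among complex II assembly factors, SDHAF2, which attaches the flavin to SDHA, had 50.3, 69.8 and 23.8 footprint TPM in sgMETTL16 and was listed at 0 in sgNS, and it passed the translation efficiency threshold (limma adjusted p = 0.0495), though not with the replicate block. SDHAF1 and SDHAF4 of the same list had the reverse pattern, listed at 0 in all 3 sgMETTL16 footprint libraries and at 51.5 and 115.1 TPM in sgNS, and did not pass (limma adjusted p = 0.130 and 0.0808).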
